A study of Mus musculus with 18 samples.

Results

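Inguinal fat, the main subcutaneous white depot of the mouse, is compared here between its adipocyte fraction and its stromal-vascular fraction (SVF). The members are 6 of the 18 arrays of the series, chosen by their labels: 3 arrays of inguinal adipocytes and 3 of inguinal SVF, all from young adult male C57BL/6 mice per the labels, with no genetic change or treatment named. The other 12 arrays hold the same 2 fractions of brown and of epididymal fat, 6 arrays each. Per the labels' protocols, minced fat was digested with collagenase type II and spun: floating adipocytes were taken from the top and passed through a wide strainer, while the SVF pellet was treated with erythrocyte lysis buffer and passed through a finer one. Both fractions were defined by buoyancy alone, with no sort on a surface protein, and the labels do not say how many animals gave each sample. P-values below therefore measure the spread between these samples, part of which may be technical, and 3 arrays per group limit the precision.

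Adipocytes store triglyceride in a droplet coated with perilipins and CIDE proteins, release it by lipolysis and secrete hormones such as adiponectin and leptin. The SVF is the mixture left after digestion: preadipocytes and fibroblasts, endothelial and mural cells, and resident or recirculating leukocytes. Inguinal fat is also known for beige adipocytes, white-fat cells that can switch on the thermogenic genes of brown fat.

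Levels are log2 signal minus the log2 of the array's 75th percentile, so 0 is the 75th percentile spot of that array, and a level of one gene cannot be set against that of another. Differences are adipocyte minus SVF on the log2 scale, ± the standard error of the limma fit over all 18 arrays. "Higher" and "lower" in counts mean a Benjamini-Hochberg adjusted p under 0.05 over 19211 genes. In these bulk samples, fewer cells of a type and less RNA per cell cannot be told apart.

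The 75th percentile signal was 394, 1044 and 437 in adipocyte replicates 1 to 3 and 521, 1056 and 963 in SVF replicates 1 to 3. Spots well above background made up 56.5 to 69.5 percent of the 6 arrays, and none was saturated. The 3 adipocyte arrays were read with software version 9.5.3.1, each on a slide and a scan day of its own, and the 3 SVF arrays with version 10.5.1.1, on slides and days that hold no inguinal adipocyte array. Software, slide and scan day cannot be told apart from the fraction in this depot.

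SVF replicate 1 stands apart and goes against its label. Xist, the RNA that coats the inactive X chromosome of females, was at 4.98 there and at most at -4.57 on the other 17 arrays, while the Y-linked Ddx3y was not well above background on that array alone. It also carried mesothelial genes: Wt1, Upk3b, Muc16, Upk1b and Bnc1 were well above background on it and not on the other 2 SVF arrays. Over the 12 listed mesothelial genes the summed level was 7.63 in SVF replicate 1, 3.34 and 2.99 in the other SVF arrays and 3.06 to 3.26 in adipocytes. Results are therefore given with and without this library. Adipocyte replicate 3 stands apart in the other direction, with the lowest levels of leukocyte genes. The summed T and NK cell list was at 6.71 and 6.37 in adipocyte replicates 1 and 2 but 1.88 in replicate 3, and at 3.54, 5.01 and 8.01 in the SVF. Over all genes the correlation of adipocyte replicate 1 with SVF replicate 2 (0.945) was higher than with adipocyte replicate 3 (0.939), and that between SVF replicates 1 and 3 was 0.879. Adipocyte replicate 3 had a mean correlation of 0.951 with the brown adipocyte arrays and 0.935 with the other inguinal adipocyte arrays. For adipocyte replicates 1 and 2 these were 0.91 and 0.907 with brown and 0.959 and 0.954 with inguinal adipocytes.

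Between the fractions, more genes were higher than lower in adipocytes. Of 19211 genes, 2684 (14.0 percent) differed between the fractions: 1760 (9.16 percent) were higher and 924 (4.81 percent) lower in adipocytes. Without SVF replicate 1 there were 2041 (10.6 percent), 1435 higher (7.47 percent) and 606 lower (3.15 percent), and 1688 (8.79 percent) were called both ways, 6.48 percent of all genes as higher and 2.31 percent as lower. Genes higher in adipocytes included those of the lipid droplet, triglyceride synthesis, thermogenesis and adipokines, such as Cidea (8.81). Genes lower in adipocytes included Ahsg, Ecrg4 and the fibroblast and matrix genes Col14a1, Pi16 and Fbn1, and the median over all genes was 0.01. The count rests on the spread pooled over all 6 groups: a fit of the 6 inguinal arrays alone called 252 genes (1.31 percent), 235 of them higher (1.22 percent) and 17 lower (0.0885 percent), and 251 of the 252 were among the 2684. Without adipocyte replicate 3 the 18-array fit called 1006, 734 higher and 272 lower. Higher and lower genes numbered 1549 and 656 without adipocyte replicate 1, and 1812 and 853 without adipocyte replicate 2. They numbered 1429 and 764 without SVF replicate 2, and 1676 and 1423 without SVF replicate 3. List counts with an array left out are to be set beside these.

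The fractions were first checked against defining markers. Adipoq, the adipokine adiponectin, was at 7.98, 7.41 and 8.79 in adipocyte replicates 1 to 3 and at 2.32, 3.48 and 0.65 in SVF replicates 1 to 3, a difference of 5.91 ± 0.84 (adjusted p = 0.000798; 6.00 without SVF replicate 1). All adipocyte arrays were above all SVF arrays, yet Adipoq was well above background on each SVF array too. Pdgfra, the receptor that marks preadipocytes and fibroblasts, was at 0.80, 1.57 and -0.86 in adipocytes and 3.48, 3.60 and 1.32 in the SVF. The adipocyte replicate 2 level lay above that of SVF replicate 3, so the groups overlapped, and Pdgfra was lower, at a difference of -2.30 ± 0.59 (adjusted p = 0.0198) with all arrays and missed the threshold without SVF replicate 1 (-1.96, adjusted p = 0.068). It did so too when SVF replicate 2 (0.0713) or adipocyte replicate 3 (0.105) was left out. Ptprc, the pan-leukocyte antigen CD45, did not separate the fractions: it was at 3.56, 3.48 and -1.01 in adipocytes and 0.61, 2.94 and 5.57 in the SVF (-1.03, adjusted p = 0.570). The label of the adipocyte arrays was thus met by the adipocyte markers, while leukocyte genes were present in adipocyte replicates 1 and 2 at levels within the range of the SVF arrays.

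**Figure D1:**
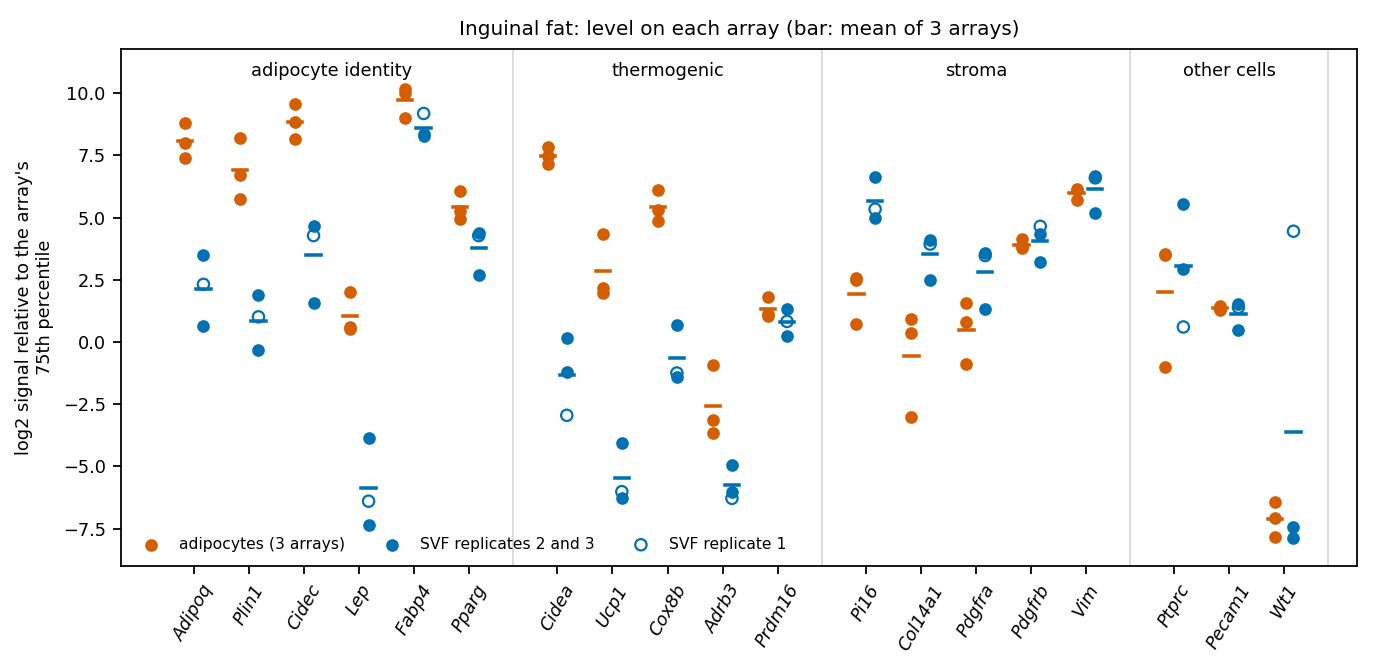
Levels (log2 relative to the array's 75th percentile) of 19 genes on the 6 inguinal arrays, adipocytes in orange, SVF replicates 2 and 3 in filled blue and SVF replicate 1 in open blue, with a bar at each group's mean. Adipocyte genes such as Adipoq and Cidea separate the fractions on every array, Ptprc does not, and Wt1 is high in SVF replicate 1 alone.

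Genes of the lipid droplet surface were mostly higher in adipocytes. Of 14 listed genes 13 could be tested (Cideb was not well above background throughout any group), and 10 were higher and none lower in adipocytes, with a median difference of 3.67 against 0.01 over all genes. All 10 were called without SVF replicate 1 as well. Cidea, a CIDE protein that enlarges droplets and is used as a marker of brown and beige fat cells, was at 7.46, 7.15 and 7.84 in adipocytes and at -2.95, 0.14 and -1.19 in the SVF (8.81 ± 1.01, adjusted p = 0.000225; 8.01 without SVF replicate 1). Plin5, the perilipin that ties droplets to mitochondria, was at 3.24, 2.85 and 5.26 against -2.95, -2.27 and -3.86 (6.81 ± 0.71, adjusted p = 0.000145). Plin1, which gates access of lipases to the droplet, was at 6.73, 5.77 and 8.21 against 1.01, 1.88 and -0.31 (6.04 ± 0.78, adjusted p = 0.000471). The groups did not overlap for any of the 3, and in each of them SVF replicate 2 was the highest SVF array. Cidec (5.36) and Plin4 (5.30) followed, and Plin2, the perilipin made in most cell types, was higher by 1.71 ± 0.34. Hilpda (1.29, adjusted p = 0.0561), Plin3 (-0.25) and Fitm1 (-0.53) did not pass.

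Triglyceride synthesis and breakdown were both represented. Of 14 synthesis genes 10 were higher and none lower (median 3.13), all 10 also without SVF replicate 1. Gpd1, which makes the glycerol backbone from a glycolytic intermediate, was at 7.34, 7.13 and 8.42 in adipocytes and 0.82, 3.54 and 0.22 in the SVF (6.10 ± 0.73, adjusted p = 0.000289). Mogat1 (6.14), Dgat2, the final acyltransferase of the pathway (5.58), and Agpat2 (4.04) came next. In the lipolysis list, 13 of 17 genes were higher and none lower (median 3.14, or 2.79 with Adrb3 at its lower bound). They included the kinase subunit Prkar2b (5.06), the phosphodiesterase Pde3b through which insulin restrains lipolysis (4.08), and the antilipolytic receptors Adora1 (4.91) and Hcar2 (4.45). The lipases Pnpla2 (3.27) and Lipe (3.14) were higher as well, while Mgll (1.04, adjusted p = 0.0506) and the glycerol channel Aqp7 (1.24, adjusted p = 0.0504) lay just beyond the threshold. Of the receptors that start lipolysis, Adrb3, the adrenergic receptor typical of fat cells, was below background throughout the SVF and at least 5.13-fold higher in adipocytes, and Adrb1 was higher by 2.79 ± 0.53.

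Most genes of de novo lipogenesis were higher in adipocytes. Of 17 genes 11 were higher, 1 was lower and 5 did not pass (median 3.20), and the 11 were called without SVF replicate 1 too. Scd1, the main delta-9 desaturase of fat and liver, was at 8.98, 8.20 and 9.18 in adipocytes and 3.93, 4.12 and 3.41 in the SVF (4.96 ± 0.43, adjusted p = 8.33e-05). Its paralog Scd2 went the other way, at 1.98, 1.97 and 2.12 against 3.36, 2.83 and 3.22 (-1.11 ± 0.29, adjusted p = 0.0202), with no overlap in either gene. The Scd2 call was lost without SVF replicate 1 (-1.0, adjusted p = 0.0614) and without adipocyte replicate 3 (adjusted p = 0.0561). Mlxipl, the carbohydrate-sensing factor ChREBP (4.21), Fasn (4.09) and Acacb (4.08) were the next largest. Among 15 genes of fatty acid uptake and binding, 7 were higher and none lower (median 1.07), 6 of the 7 without SVF replicate 1. Slc27a2 (6.43, above background on 1 SVF array), Acsl1 (4.81), Slc27a1 (4.47) and Lpl (2.29) led. Fabp4, often used as an adipocyte marker, differed by 1.13 ± 0.34 (adjusted p = 0.0405): it was at 10.17, 9.03 and 10.01 in adipocytes and at 9.19, 8.36 and 8.26 in the SVF. SVF replicate 1 thus lay above adipocyte replicate 2, and the groups overlapped. Without adipocyte replicate 3 only 3 of the 15 passed, and the adjusted p was 0.0577 for Slc27a1 and 0.153 for Fabp4.

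**Figure D2:**
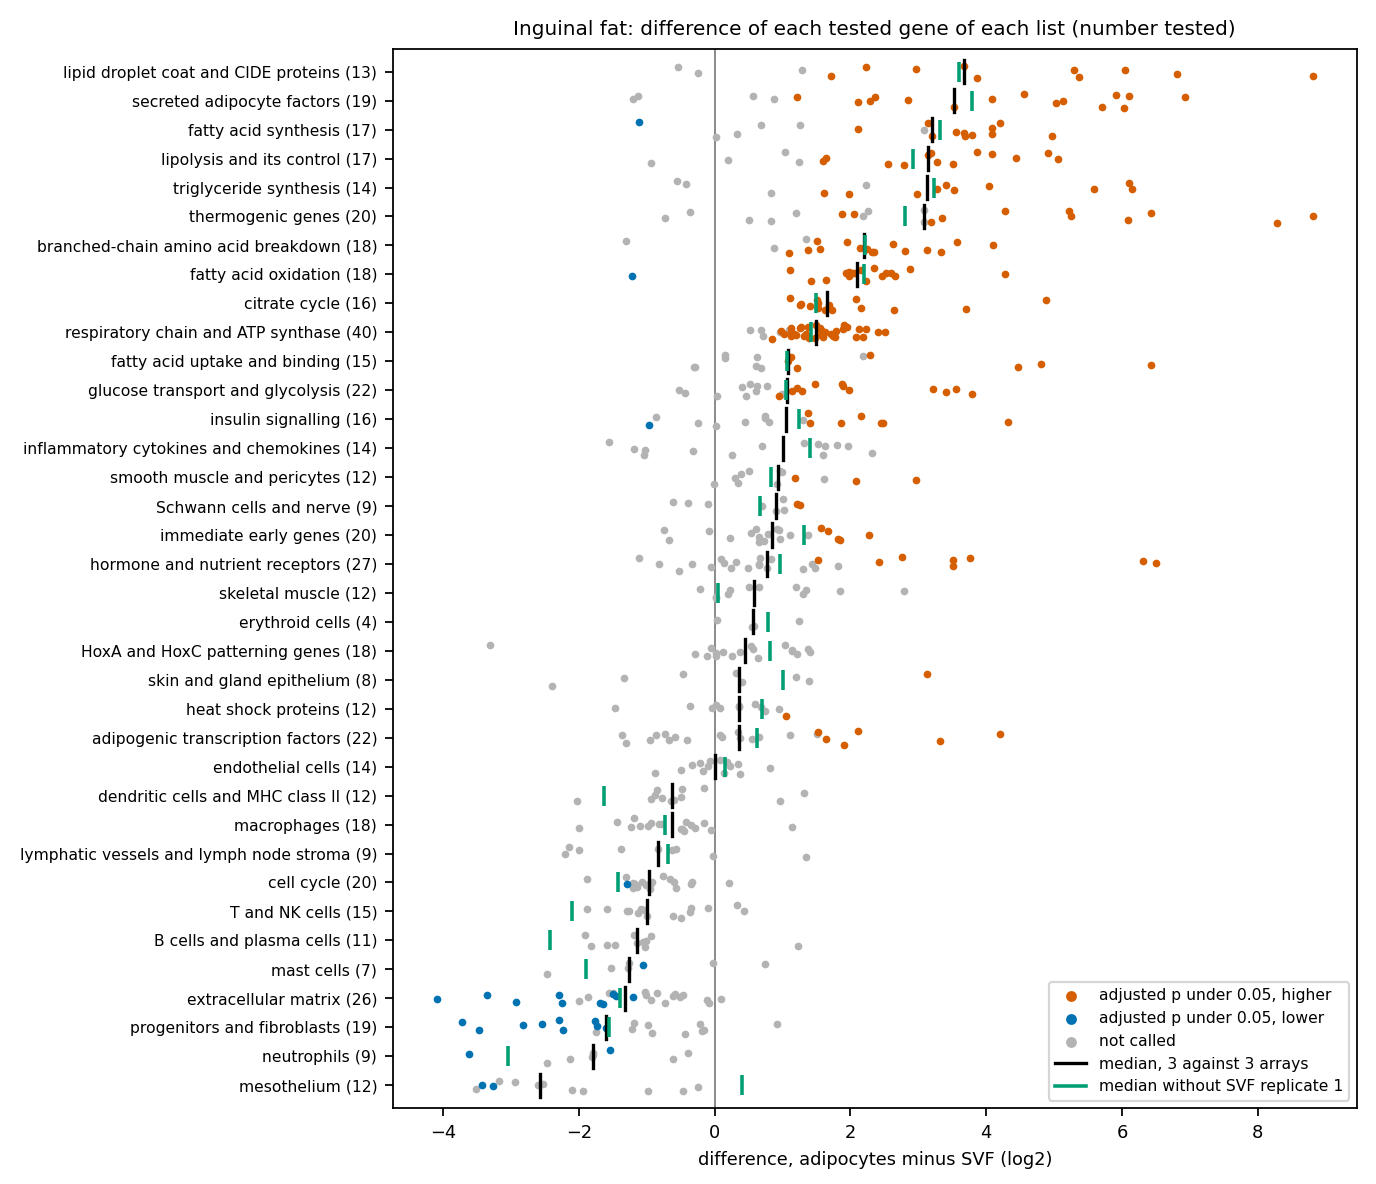
Adipocyte minus SVF differences (log2) of every tested member of 36 gene lists, one row per list, coloured by whether the gene was higher, lower or did not pass, with the list's median in black and its median without SVF replicate 1 in green. Lipid, mitochondrial and secreted factor lists lie to the right of 0, fibroblast and matrix lists to the left, and the mesothelial median moves from -2.57 to 0.40 when SVF replicate 1 is left out.

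Many genes of thermogenesis were higher in the adipocytes than in the SVF of this white depot. The median difference of the list was above 0 in epididymal fat too (2.28). Of 20 listed genes 11 were higher and none lower (median 3.08, or 2.72 with genes at their lower bound), and all 11 were called without SVF replicate 1 and without adipocyte replicate 3. Ucp1, the uncoupling protein that dissipates the proton gradient as heat, was at 1.99, 2.18 and 4.34 in adipocytes. In the SVF it was at -6.02, -4.08 and -6.26 and well above background on 1 array, a difference of 8.29 ± 1.56 (adjusted p = 0.00371). It was 7.35 with spots below background raised to the array's floor, the lowest signal well above background there, an alternative chosen after seeing the data. Adipocyte replicate 3, the array that correlated more with brown than with inguinal adipocytes, held the highest Ucp1 level. All SVF arrays lay below all adipocyte arrays. Cox8b, a cytochrome oxidase isoform of muscle and brown fat, was at 5.31, 4.85 and 6.12 against -1.25, 0.69 and -1.42 (6.08 ± 0.72, adjusted p = 0.00028). Cox7a1 (5.24), the proton channel Otop1 (at least 8.70-fold, below background on all SVF arrays), Kcnk3 (3.34) and Dio2, which activates thyroid hormone (2.05), were higher too. Among regulators of the program, Prdm16 was at 1.12, 1.04 and 1.79 in adipocytes and 0.83, 1.32 and 0.26 in the SVF (0.51, adjusted p = 0.339), with overlap. Ppargc1a gave 2.26 (adjusted p = 0.0769), Ppargc1b 1.88 ± 0.35 (adjusted p = 0.00361) and Ebf2 -0.73 (adjusted p = 0.354). Zic1, a brown-depot patterning gene, was not well above background on any inguinal adipocyte array. Lhx8, another such gene, was so on all 3 of them and on 2 inguinal SVF arrays. Its difference was 3.08, or 2.37 with dim spots at the array's floor.

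Mitochondrial energy genes moved by less but with few exceptions. Of 40 respiratory chain and ATP synthase genes 35 were higher and none lower (median 1.49), and 30 of them were called without SVF replicate 1. For 39 of the 40 every adipocyte array lay above every SVF array, which held for 16.6 percent of all genes (the reverse for 10.2 percent). Ndufb8 of complex I was at 6.23, 6.02 and 7.10 in adipocytes and 3.77, 3.96 and 4.08 in the SVF (2.52 ± 0.36, adjusted p = 0.000798). Ndufb9 (2.40), Sdhb of complex II (2.22) and Uqcrq of complex III (2.19) followed. ATP synthase subunits were the weaker end, with Atp5b at 1.57 ± 0.25 and Atp5d (1.09), Atp5pb (0.71) and Atp5g1 (0.52) short of the threshold. The calls depend on the fit and on 1 array: 18 of 40 passed without adipocyte replicate 3, and 2 of 40 in the fit of the 6 inguinal arrays alone.

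Fuel oxidation showed the same direction. Of 18 fatty acid oxidation genes 17 were higher and 1 lower (median 2.10), with Cpt1b (4.28), Acadm (2.87), Cpt2 (2.66) and Eci1 (2.60) at the top. The exception was the liver-type carnitine transferase Cpt1a, the counterpart of the muscle-type Cpt1b, at 1.69, 1.46 and 1.21 in adipocytes and 2.79, 2.47 and 2.77 in the SVF (-1.22 ± 0.26, adjusted p = 0.00694; -1.17, adjusted p = 0.0234 without SVF replicate 1). Cpt1b itself was at 1.26, 1.23 and 2.98 against -2.03, -2.41 and -2.94, so the isoform pair differed in opposite directions with no overlap in either. All 16 citrate cycle genes were higher (median 1.65), 12 of them without SVF replicate 1 and 9 without adipocyte replicate 3. Pyruvate carboxylase Pcx (4.88), which refills the cycle, Idh3a (3.70) and Sucla2 (2.16) were among them. Branched-chain amino acid breakdown, a known trait of mature fat cells, was higher for 15 of 18 genes and lower for none (median 2.20), led by Mccc2 (4.10), Hibch (3.57), Aldh6a1 (3.33) and Bckdhb (3.13). Bcat1, the cytosolic aminotransferase, gave -1.31 (adjusted p = 0.11), while the mitochondrial Bcat2 was higher by 2.15 ± 0.64 (adjusted p = 0.0379, but 0.0745 without SVF replicate 1 and 0.181 without adipocyte replicate 3).

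Because these mitochondrial genes were higher together, their promoters were searched for short motifs of factors that act on mitochondrial genes. RefSeq windows of 300 bases (250 before to 50 after the start, GRCm38.p6) were at hand for 71 of the 92 listed genes of the 4 mitochondrial lists, 83 of which were higher in adipocytes. On either strand AAGGTCA, the core bound by estrogen-related receptors, was in 4 of 71 windows (5.63 percent) and in 1454 of 27025 windows of all genes (5.38 percent). Its extended form TCAAGGTCA, which contains the core, was in 2 of 71 (2.82 percent) against 0.466 percent, and the NRF1 palindrome, GCGCA followed by its reverse complement, in 2 of 71 (2.82 percent) against 1.07 percent. The direct repeat of AGGTCA with 1 base between the copies, the form bound by PPARG with RXR, was in none of the 71 and in 13 of all windows. With counts of 2 to 4, nothing is read from these shares. The 250 bases before the start are shown for 1 gene of each kind, 5′ to 3′ on the gene's strand with the motif in capitals. Atp5g3 encodes subunit c of ATP synthase (chr2:73911327-73911576, minus strand, the extended core read from the other strand, ending 43 bases before the start), and Etfdh passes electrons from fatty acid oxidation to the respiratory chain (chr3:79628768-79629017, minus strand, the NRF1 motif 118 bases before the start).
Atp5g3: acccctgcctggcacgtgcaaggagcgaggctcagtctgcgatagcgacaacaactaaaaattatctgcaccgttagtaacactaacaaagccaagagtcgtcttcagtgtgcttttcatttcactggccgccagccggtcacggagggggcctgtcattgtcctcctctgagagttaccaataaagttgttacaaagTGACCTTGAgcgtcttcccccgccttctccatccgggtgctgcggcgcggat
Etfdh: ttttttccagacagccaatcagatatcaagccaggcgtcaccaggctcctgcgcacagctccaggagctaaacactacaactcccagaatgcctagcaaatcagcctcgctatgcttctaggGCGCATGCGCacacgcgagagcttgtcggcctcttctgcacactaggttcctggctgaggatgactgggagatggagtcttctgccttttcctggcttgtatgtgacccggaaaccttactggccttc
A match is a description of the sequence and does not show that a factor is bound. Atp5g3 was at 7.05, 6.53 and 7.38 in adipocytes and 6.42, 6.10 and 5.91 in the SVF (0.84 ± 0.25, adjusted p = 0.0394). Etfdh was at 3.68, 3.87 and 4.65 against 2.39, 2.70 and 2.20 (1.64 ± 0.30, adjusted p = 0.00328). Neither gene's groups overlapped, and the Atp5g3 call was lost without adipocyte replicate 3 (adjusted p = 0.174).

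Glucose handling was mixed. Of 22 genes of glucose transport and glycolysis 12 were higher and none lower (median 1.07), and 9 of the 12 were also called without SVF replicate 1. The list had 5 genes higher without adipocyte replicate 3. Pdk4, which diverts pyruvate from oxidation, was at 5.90, 5.77 and 6.34 in adipocytes and 3.61, 2.57 and 0.46 in the SVF (3.79 ± 0.59, adjusted p = 0.00124). The insulin-regulated transporter Slc2a4 (3.56), Hk2 (3.41) and Ldhd (3.22) were next, whereas the ubiquitous forms Slc2a1 (0.41) and Hk1 (-0.43) did not pass. Among 16 tested insulin signalling genes 7 were higher and 1 lower: Trarg1, which helps sort the transporter (4.32), Grb14 (2.47) and Irs3 (2.45) were among the highest. Foxo1 was lower, at a difference of -0.96 ± 0.25 (adjusted p = 0.021). Without adipocyte replicate 3 the list had 3 genes higher and none lower, and the adjusted p was 0.052 for Grb14, 0.0748 for Irs3 and 0.0759 for Foxo1. Irs3 also missed the threshold without SVF replicate 1 (0.0504) and Foxo1 without SVF replicate 3 (0.0539). The insulin receptor Insr gave 1.29 (adjusted p = 0.101).

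Receptors for circulating signals set a few genes far apart. Of 27 tested hormone and nutrient receptors 8 were higher and none lower, with a median of 0.78. Tshr, the thyrotropin receptor, was at -0.71, -0.76 and 0.94 in adipocytes and below background throughout the SVF, at least 28.8-fold higher (37.8-fold without SVF replicate 1; adjusted p = 0.000194). Klb, the coreceptor for FGF21, was at 2.07, 1.93 and 3.77 against -3.94, -2.64 and -4.60 (6.32 ± 0.73, adjusted p = 0.000227). Both separated the fractions on every array. The succinate receptor Sucnr1 (3.76) and the growth hormone receptor Ghr (3.52) were higher, while Esr1 (0.13) and the vitamin D receptor Vdr (-1.11) did not pass. Without SVF replicate 3 the list had 7 genes higher and 2 lower. Over all 19211 genes that fit had 1676 higher and 1423 lower, so the 2 lower genes are near the share over all genes. A further receptor outside the list, the secretin receptor Sctr, was at least 8.62-fold higher.

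Secreted factors were mostly higher in adipocytes. Of 22 listed genes 19 could be tested, of which 15 were higher and none lower (median 3.53, 3.79 without SVF replicate 1). Lep, the satiety hormone leptin, was at 0.62, 0.53 and 1.99 in adipocytes and at -6.40, -3.87 and -7.35 in the SVF, well above background on 1 SVF array (6.92 ± 0.85, adjusted p = 0.000357; 5.49 with spots below background at the array's floor). Nrg4, a growth factor released by brown and beige cells, was at 2.90, 2.44 and 3.59 against -3.55, -1.76 and -3.87 (6.04 ± 0.92, adjusted p = 0.00112). Lgals12 (6.11, above background on 1 SVF array) and Retn, the mouse adipokine resistin (5.71), were the other large ones. Adig was at least 12.3-fold higher. The angiogenic factors Vegfa (2.84) and Vegfb (2.37) were higher too, and Metrnl (-1.13) and Fgf1 (-1.21) did not pass. Retn, Vegfa and Vegfb lost their calls without adipocyte replicate 3 (adjusted p = 0.0587, 0.0611 and 0.0772). Fgf1 was at -0.50 in SVF replicate 1 and between -5.24 and -4.26 on the other 5 arrays.

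Adipogenic transcription factors had a smaller median than the lipid lists. Of 22 factors 6 were higher and none lower, with a median of 0.36 (0.63 without SVF replicate 1). Pparg, the master regulator of adipogenesis, was at 5.28, 4.93 and 6.07 in adipocytes and 4.28, 4.38 and 2.69 in the SVF (1.65 ± 0.47, adjusted p = 0.0322). Its groups did not overlap, but the call was lost without adipocyte replicate 1 (adjusted p = 0.0563), adipocyte replicate 3 (0.15) or SVF replicate 3 (0.0966). Cebpa, its partner in late differentiation, was at 3.73, 3.42 and 4.62 against 0.61, 1.24 and -0.04 (3.32 ± 0.50, adjusted p = 0.00109). The early factors Cebpb (1.11, adjusted p = 0.128) and Cebpd (-0.40, adjusted p = 0.634) did not pass. Without SVF replicate 3 the list had 5 factors higher and 6 lower, with a median of -0.21.

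A few of the most strongly higher genes lay outside these lists. The carboxylesterases Ces1f (6.47 ± 1.43, adjusted p = 0.0091) and Ces1d (5.72 ± 1.05, adjusted p = 0.00323), lipid hydrolases of liver and fat, were called with and without SVF replicate 1. So were Apol6 (6.17 ± 0.78) and the galactosidase-like Glb1l2 (6.10 ± 0.71). Adtrp, also below background throughout the SVF, had a bound of at least 10.4-fold, and for Nxnl1 the bound was at least 7.68-fold. With normexp background correction on a repaired local background, chosen after seeing the data, differences of such genes fell below their bounds. Tshr gave 3.38, Adig 2.46, Adtrp 2.17, Nxnl1 2.15, Otop1 2.01, Sctr 1.72 and Adrb3 1.23 (log2), all still called (adjusted p up to 0.0376).

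Some progenitor and fibroblast genes were lower in adipocytes. Of 19 genes of progenitors and fibroblasts none was higher and 9 were lower in adipocytes (median -1.59), but only 4 of the 9 were called without SVF replicate 1. Pi16, a marker of the progenitors that lie in the interstitial sheath of fat, was at 2.57, 2.50 and 0.72 in adipocytes and 5.34, 6.65 and 4.97 in the SVF (-3.73 ± 0.72, adjusted p = 0.00515; -3.88 without SVF replicate 1). Dpp4, a surface marker of the same cells, was at 1.01, 1.13 and -2.72 against 3.65, 3.89 and 2.27 (-3.46, adjusted p = 0.0215; adjusted p = 0.0589 without SVF replicate 1). Neither overlapped, and adipocyte replicate 3 was the lowest array for both genes. Wnt2 (-2.82) and Fn1 (-2.54) were lower, and Pdgfrb (-0.15, adjusted p = 0.809), Vim (-0.18) and Thy1 (-1.19) did not pass. The count fell to 1 without adipocyte replicate 3 and to 3 without SVF replicate 2. Without adipocyte replicate 3 the adjusted p was 0.0993 for Dpp4, 0.207 for Wnt2 and 0.163 for Fn1, and all 3 missed the threshold without SVF replicate 2 too (0.0642, 0.137 and 0.116). Fn1 also did so without SVF replicate 1 (0.0722), and Wnt2 without SVF replicate 3 (0.0656). The summed level of the list was 10.28, 9.42 and 9.65 in adipocytes and 10.46, 10.16 and 9.24 in the SVF, so the groups overlapped.

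Matrix genes gave the same picture. Of 26 genes none was higher and 10 were lower (median -1.32), 6 of them called without SVF replicate 1 as well, and 2 were lower without adipocyte replicate 3 or without SVF replicate 2. Col14a1, a collagen that binds to fibrils, was at 0.38, 0.92 and -3.01 in adipocytes and 3.94, 4.12 and 2.51 in the SVF (-4.10 ± 0.88, adjusted p = 0.00776). Fbn1, the microfibril protein fibrillin, was at 0.31, 0.86 and -1.51 against 3.10, 4.16 and 2.48 (-3.36 ± 0.66, adjusted p = 0.00479). Both were without overlap, a condition for naming them, and stayed called whichever inguinal array was left out of the 18-array fit. In the fit of the 6 inguinal arrays alone neither was called, and 0 of the 26 genes were lower. Mfap5, a microfibril partner of fibrillin, gave -2.93 ± 0.79 (adjusted p = 0.0241, but 0.12 without adipocyte replicate 3 and 0.0707 without SVF replicate 2). Timp2 gave -2.30 ± 0.72 and kept its call only without adipocyte replicate 1 or SVF replicate 3 (adjusted p up to 0.22 otherwise). The basement membrane collagens Col4a1 (-0.58) and Col4a2 (0.10), which adipocytes also make, did not pass.

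Other genes lower in adipocytes had varied roles. Cpz, a carboxypeptidase of the matrix, was at -1.86, -2.49 and -4.05 in adipocytes and 1.31, 1.26 and 0.89 in the SVF (-3.95 ± 0.73, adjusted p = 0.00334), and passed in the fit of the 6 arrays alone too (adjusted p = 0.0296). Cxcr4, the chemokine receptor of leukocytes, was at -1.18, -0.90 and -4.55 against -0.33, 0.99 and 3.09 (-3.46 ± 0.83, adjusted p = 0.0143; adjusted p = 0.0617 without adipocyte replicate 3). The liver-type plasma protein gene Ahsg, at -4.17, -3.90 and -3.81 against -1.98, 3.85 and 0.20, was lower, at a difference of -4.66 ± 1.01 (adjusted p = 0.00831). Its SVF arrays spread far more than its adipocyte arrays. Ecrg4 (-4.14), Xpnpep2 (-4.05), Dact2 (-3.72) and Plac8 (-3.29) were lower as well. Smpd3 was lower, at a difference of -3.57 on its brightest probe, but another probe of the gene was higher by 2.91 (adjusted p = 0.0109), so its direction depends on the probe. Genes not well above background on any adipocyte array were lower by at least 6.34-fold (Apof), 5.49-fold (Fyb2), 3.77-fold (Stag3), 3.10-fold (Lingo1), 2.88-fold (Dlg4) and 2.28-fold (Cutal). With normexp background correction on a repaired local background, also chosen after seeing the data, Apof was still lower (adjusted p = 0.0365), while Fyb2 (0.119), Stag3 (0.334), Lingo1 (0.59), Dlg4 (0.401) and Cutal (0.868) were not called.

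Leukocyte lists did not separate the fractions. None of 18 macrophage, 12 dendritic cell and MHC class II, 15 tested T and NK cell or 11 tested B cell genes passed in either direction, with medians of -0.63, -0.62, -1.0 and -1.14. Without SVF replicate 1 the medians were -0.73, -1.63, -2.10 and -2.43, and again no gene of the 4 lists passed. The medians turned to 0.17, 0.35, 0.43 and 0.24 without adipocyte replicate 3. Summed macrophage genes were at 8.44, 8.02 and 5.75 in adipocytes and 7.60, 8.44 and 7.63 in the SVF. Summed B cell genes were at 6.57, 6.19 and 1.97 against 3.82, 6.09 and 8.49. In both lists adipocyte replicates 1 and 2 lay within the range of the SVF arrays and replicate 3 below it. Of 9 tested neutrophil genes 2 were lower, Retnlg (-3.62 ± 0.71, adjusted p = 0.00491) and Csf3r (-1.54), and 5 were lower without SVF replicate 1. The count was 1 without SVF replicate 2, adipocyte replicate 1 or adipocyte replicate 3, with an adjusted p of 0.105, 0.0514 and 0.15 for Csf3r. Of 7 tested mast cell genes Hdc, which makes histamine, was lower (-1.06, adjusted p = 0.0373, but 0.0571 without SVF replicate 1 and 0.178 without adipocyte replicate 3), and 2 others were lower without SVF replicate 1. The part of leukocytes in the other differences was not tested.

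**Figure D3:**
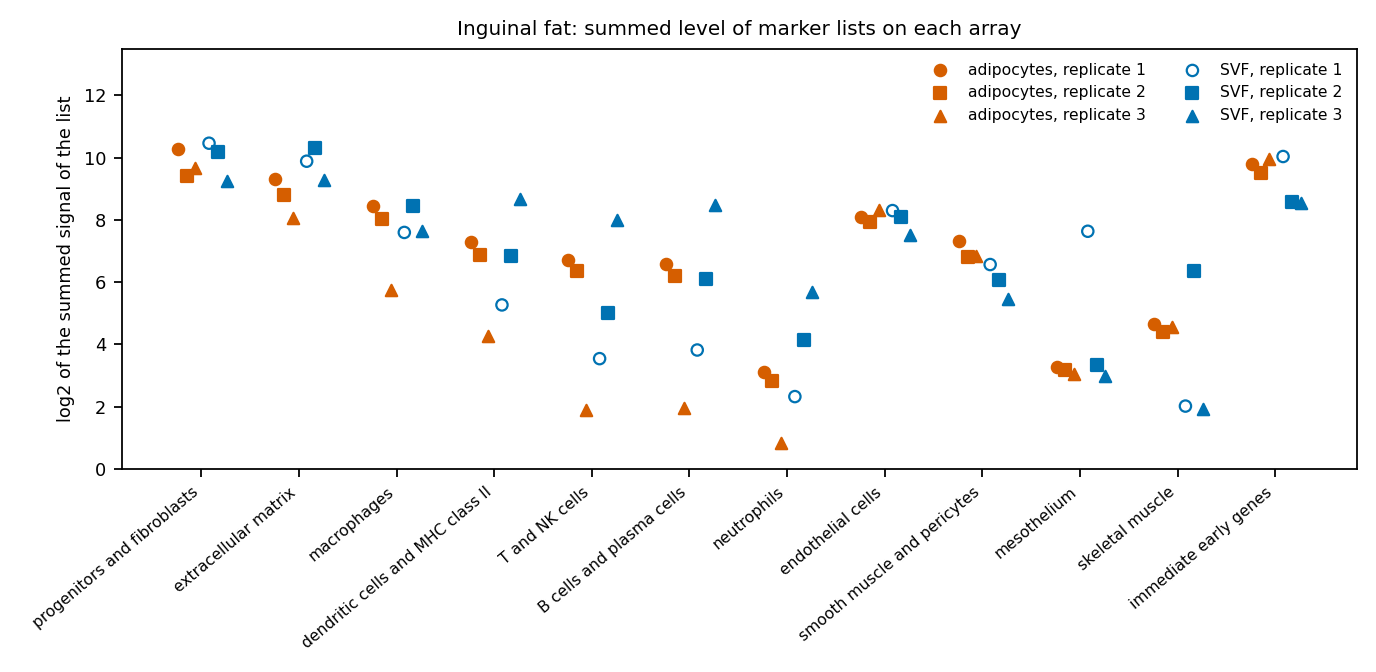
Summed level (log2 of the summed signal of the members, relative to the array's 75th percentile) of 12 marker lists on each inguinal array, adipocytes in orange and SVF in blue, SVF replicate 1 open. Adipocyte replicate 3 is lowest for T and NK, B cell and macrophage lists, SVF replicate 1 is highest for mesothelium and SVF replicate 2 for skeletal muscle.

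Vessel genes were present on both sides. None of 14 endothelial genes passed (median 0.01): Pecam1, the junction protein CD31, was at 1.45, 1.28 and 1.34 in adipocytes and 1.40, 1.53 and 0.47 in the SVF (0.22, adjusted p = 0.799). The summed list was at 8.10, 7.94 and 8.31 against 8.30, 8.10 and 7.50, with overlap. Of 12 smooth muscle and pericyte genes 3 were higher in adipocytes and none lower (median 0.94). Cspg4, the pericyte proteoglycan NG2, was at 2.11, 1.93 and 3.55 in adipocytes and -0.57, -0.16 and -0.58 in the SVF (2.97 ± 0.34, adjusted p = 0.000215; 2.90 without SVF replicate 1). Cnn1, a calponin of smooth muscle, gave 2.08 ± 0.60 (adjusted p = 0.0326) and passed without SVF replicate 1 (0.00717), but not when any of the other 5 inguinal arrays was left out (0.056 to 0.117), and Kcnj8 1.18 ± 0.36 (adjusted p = 0.0416, but 0.111 without SVF replicate 1). Pdgfrb, which mural cells also carry, did not move with Cspg4. Without adipocyte replicate 1, adipocyte replicate 2, adipocyte replicate 3 or SVF replicate 3, 1 of the 12 genes was higher. Without adipocyte replicate 3 the adjusted p of Kcnj8 was 0.104.

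Lists of other tissues varied with single arrays. Of 12 mesothelial genes 2 were lower, Krt18 (-3.43 ± 0.96) and Krt8 (-3.26 ± 1.01), and neither was without SVF replicate 1 (adjusted p = 0.1 and 0.148) or without adipocyte replicate 3 (0.152 and 0.213). The summed skeletal muscle list was at 4.64, 4.42 and 4.55 in adipocytes but 2.02, 6.37 and 1.92 in the SVF. None of its 12 genes passed with all arrays, and 6 were higher in adipocytes (median 2.34) without SVF replicate 2. Of 8 tested epithelial genes 1 was higher (12.5 percent, against 9.16 percent of all genes). It was Trp63, the basal epithelial factor (3.13 ± 0.66, adjusted p = 0.00677), with Krt5 (1.39) and Krt14 (0.41) short of the threshold. The summed epithelial list was at 4.24 in SVF replicate 1, -0.23 and -0.63 in the other SVF arrays and 0.24, 0.26 and 0.69 in adipocytes. Of 9 tested Schwann cell genes Sox10 (1.27) and Mag (1.21) were higher. Without adipocyte replicate 3 neither was (adjusted p = 0.142 and 0.0794), and 1 of the 9 was without SVF replicate 1, SVF replicate 2 or adipocyte replicate 1. No listed erythroid gene of the 4 tested passed, and none of 9 tested genes of lymphatic vessels and lymph node stroma did, though 4 of the latter were lower without SVF replicate 3 and 2 without adipocyte replicate 2.

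Genes known to respond to tissue handling also depended on SVF replicate 1. Of 20 immediate early genes 5 were higher in adipocytes with all arrays (median 0.85), and 12 without SVF replicate 1 (median 1.32). They were Fosl1 (2.27), Egr2 (1.85), Fosb (1.82), Atf3 (1.66) and Ier2 (1.57). Fosb was at 3.69, 3.44 and 3.68 in adipocytes and at 2.97, 1.78 and 0.62 in the SVF, where replicate 1 was the highest array. The count was 1 without SVF replicate 2 or 3, 2 without adipocyte replicate 1 and 3 without adipocyte replicate 2 or 3. Fosb itself missed the threshold in 4 of these cases, with an adjusted p up to 0.084. Of 12 tested heat shock genes 1 was higher (8.33 percent, against 9.16 percent of all genes), the mitochondrial chaperone Hspd1 (1.06). Its adjusted p was 0.053 without SVF replicate 1, 0.0652 without SVF replicate 2 and 0.117 without adipocyte replicate 3. Hspa1a, the inducible HSP70, was at 7.59 in SVF replicate 1 and at 3.78 to 5.00 on the other 5 arrays (-1.46, adjusted p = 0.135). None of 14 tested cytokine and chemokine genes passed with all arrays, and 3 were higher without SVF replicate 1. Among 20 cell cycle genes 1 was lower, Mcm3 (-1.29 ± 0.40, adjusted p = 0.0423), which is 5 percent against 4.81 percent of all genes. None was lower without SVF replicate 2, SVF replicate 3 or adipocyte replicate 3 (adjusted p of Mcm3 0.0597, 0.126 and 0.195), and 4 were lower without SVF replicate 1, 3 without adipocyte replicate 1 and 2 without adipocyte replicate 2. Among 18 tested HoxA, HoxC and related patterning genes none passed, with 2 higher and 1 lower without SVF replicate 2.

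**Figure D4:**
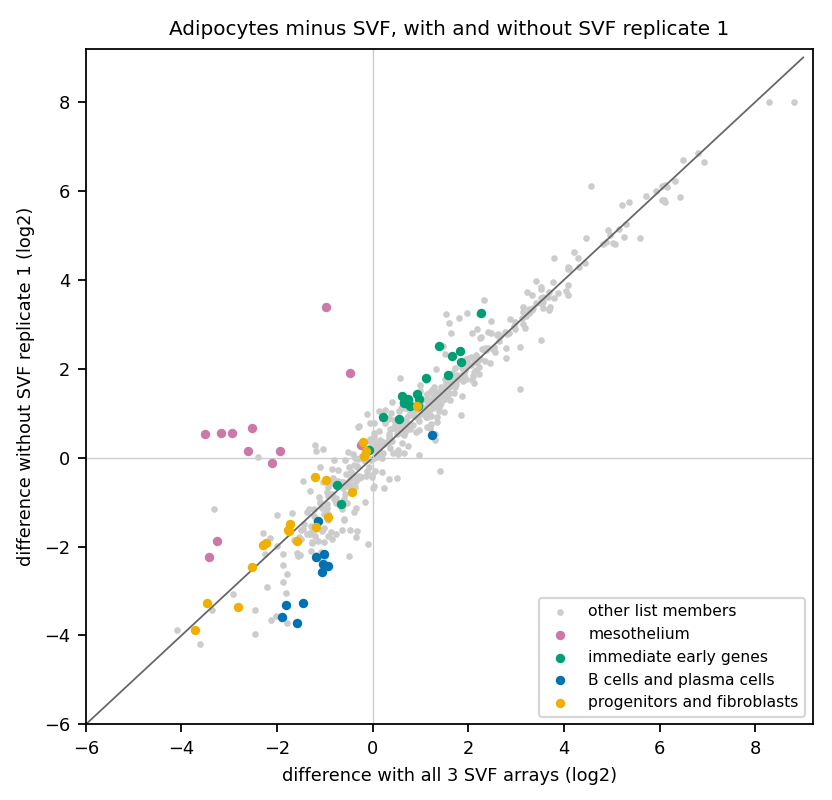
Adipocyte minus SVF difference (log2) of each tested list gene with all 3 SVF arrays (horizontal) and without SVF replicate 1 (vertical), with mesothelial, immediate early, B cell and progenitor genes coloured. Mesothelial genes such as Wt1 leave the diagonal (-3.51 with and 0.53 without the array), while most other genes stay near it.

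The fraction difference was then set against the same difference in the other depots, which asks where inguinal fat departs from brown and from epididymal fat. Against brown fat 165 genes (0.859 percent) differed, 140 with a larger (0.729 percent) and 25 with a smaller (0.130 percent) adipocyte minus SVF value in inguinal fat. Without SVF replicate 1 there were 236 (1.23 percent), 1.07 percent larger and 0.156 percent smaller. The arrays behind these contrasts differ in how they were read: all 6 brown arrays were read with version 10.5.1.1, both fractions sharing slides, whereas the epididymal arrays were split like the inguinal ones, with adipocytes read by 9.5.3.1 and SVF by 10.5.1.1. Software and slide cannot be told apart from the contrast with brown fat. Against epididymal fat 15 genes (0.0781 percent) differed, 3 larger (0.0156 percent) and 12 smaller (0.0625 percent). Without SVF replicate 1 there were 13 (0.0677 percent), 0.0208 percent larger and 0.0468 percent smaller. No member of the lipid, mitochondrial or thermogenic lists was among them, although medians differed: thermogenic genes had 3.08 in inguinal, 3.17 in brown and 2.28 in epididymal fat, and respiratory genes 1.49, 2.26 and 0.88. Cidea, for instance, gave 8.81 in inguinal, 3.29 in brown and 5.40 in epididymal fat, and the test against brown fat did not pass (adjusted p = 0.0912).

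Contractile genes were among those that differed from brown fat. Of the 12 smooth muscle and pericyte genes 8 did, all with a larger value in inguinal fat, with or without SVF replicate 1, and their list median was 0.94 in inguinal, -2.33 in brown and 0.21 in epididymal fat. Acta2, smooth muscle actin, was at 5.14, 4.52 and 4.79 in inguinal adipocytes and 4.45, 3.79 and 3.46 in inguinal SVF, a difference of 0.92 ± 0.45 that did not pass (adjusted p = 0.189). In brown fat it was lower in adipocytes, at -4.96, and the depots differed by 5.87 ± 0.64 (adjusted p = 0.00037). Cnn1 (2.08 against -4.58 in brown fat; 6.67 ± 0.85, adjusted p = 0.000927), the cardiac actin gene Actc1 (1.05 against -4.78; 5.83 ± 0.76, adjusted p = 0.00107) and Myh11 (0.38 against -4.72; 5.10 ± 0.49) showed the same pattern. In each, the brown SVF held the high level, at a mean of 6.73 for Acta2 and 3.21 for Cnn1. Sncg, gamma-synuclein, a protein of neurons and white adipocytes, was higher in inguinal adipocytes (3.87) and gave -1.56 in brown fat (5.43 ± 0.52, adjusted p = 0.000123) and 4.86 in epididymal fat. Entpd4 (-0.30 against 2.27), Fastkd1 (-0.03 against 2.10), Rpa3 (-1.12 against 0.93) and Col27a1 (-0.73 against 1.25) were the named genes with smaller values in inguinal fat.

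Tbx1, Trib1 and Pard6g were the 3 genes with a larger value in inguinal than in epididymal fat. Tbx1, a T-box factor used as a beige marker, was at -0.18, 0.25 and -0.15 in inguinal adipocytes and -2.16, -1.45 and -0.12 in the SVF, a difference of 1.22 ± 0.46 with overlap that did not pass (adjusted p = 0.0871). It did pass without SVF replicate 3 (adjusted p = 0.01) and in the deposited matrix (1.17, adjusted p = 0.0382), and among probes above background on all 18 arrays the gene gave -1.49 (adjusted p = 0.0507), so its direction depends on the probe. In epididymal fat the Tbx1 difference was -3.71, and the depots differed by 4.93 ± 0.65 (adjusted p = 0.00755). From brown fat, where no adipocyte array was well above background for Tbx1, it differed by 5.28 ± 0.65 (adjusted p = 0.000649), or by 3.32 with such spots at the array's floor. Trib1, a pseudokinase that controls C/EBP turnover, was at 4.09, 4.15 and 3.98 in adipocytes and 1.85, 1.16 and 0.92 in the SVF (2.76 ± 0.29, adjusted p = 0.000145). It gave 0.31 in epididymal fat, so that the depots differed by 2.45 ± 0.41 (adjusted p = 0.0322). The inguinal adipocyte arrays agreed to within 0.2 of each other for Trib1 and lay above all SVF arrays. Pard6g, a cell polarity gene named here after its values were seen, differed by 2.21 ± 0.38 (adjusted p = 0.0469, but 0.0683 without SVF replicate 1). In the fit of probes well above background on all 18 arrays, which keeps Trib1 and Pard6g, 0 genes passed against epididymal fat. Both calls were thus lost there, and Tbx1, measured by another probe in that fit, did not pass either. Of the 12 genes with a smaller value in inguinal fat, 11 were well above background on all 3 epididymal adipocyte arrays, and 0 of the 12 on all 3 inguinal adipocyte arrays, so none met the rule for naming. As 9 of the 12 were well above background on no inguinal SVF array either, their count is not read as a trait of inguinal fat. Epididymal adipocyte replicate 1 had 87.9 percent of spots well above background, against 68.7 and 62.8 in replicates 2 and 3.

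**Figure D5:**
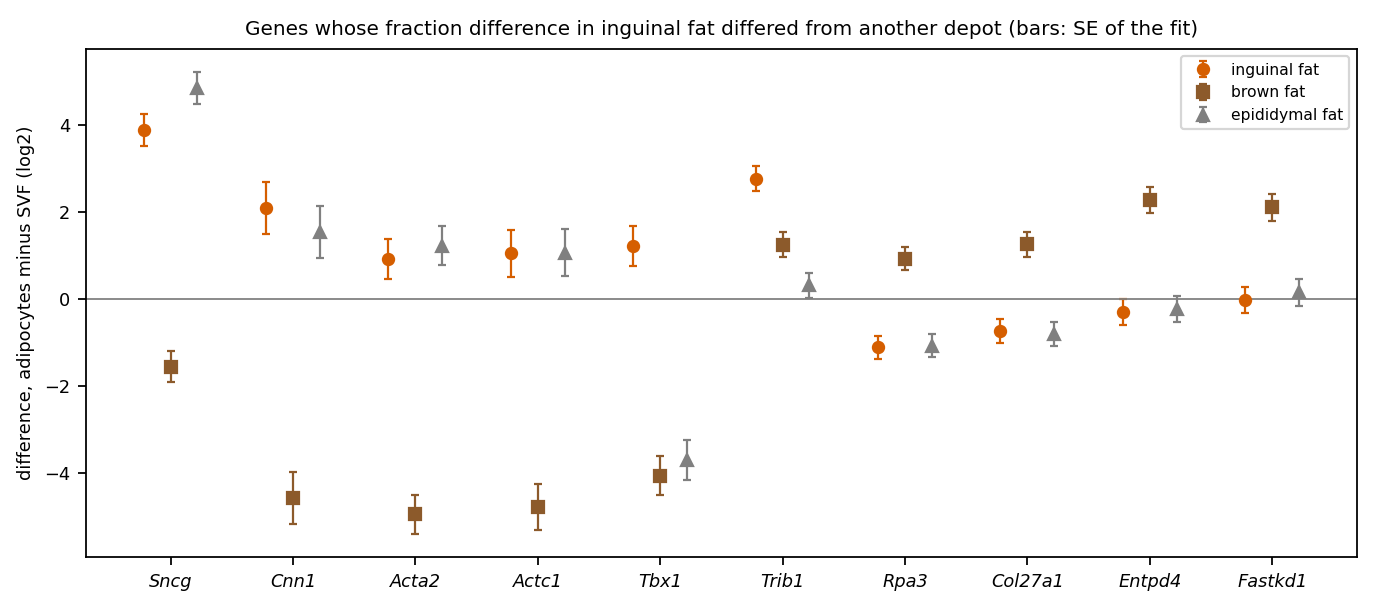
Adipocyte minus SVF difference (log2, mean and standard error of the fit, 3 arrays per group) of 10 genes in inguinal, brown and epididymal fat. The smooth muscle genes Acta2 and Cnn1 are near or above 0 in inguinal and epididymal fat and below it in brown fat, and Tbx1 gives 1.22 in inguinal fat and negative values in the others, in brown fat with adipocyte arrays below background.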

How the data were processed

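RNA of each fraction was labelled with Cy3 and hybridised to one-colour Agilent arrays. Per the file headers, Agilent Feature Extraction was the authors' software for reading the scans (version 9.5.3.1 or 10.5.1.1), and the deposited intensity is a background-corrected processed signal, not normalized between arrays. The deposited series matrix holds log2 values whose normalization is not given in the sources used here. All 18 of its columns match an array of their own group best, but only 4 of 18 the same replicate number, so it served as an alternative.

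Of 43379 spots outside the controls (41174 probes), spots marked as outliers were dropped, the spots of a probe averaged, and the log2 75th percentile of the array subtracted. The 28588 probes that passed the scanner's background test throughout 1 or more of the 6 groups were kept, and the brightest stands for each of 19211 genes. Gene names follow RefSeq (GRCm38.p6), matched through the accession for 24375 probes, symbol for 6301 and synonym for 2426, and 8072 kept the array's name. limma 3.58.1 in R 4.3.3 (lmFit, eBayes, two-sided, Benjamini-Hochberg adjustment, threshold 0.05) was fitted to all 18 arrays with 6 group means, for the inguinal difference and its contrast with brown and epididymal fat. The script was tested on simulated data, with 50 changed genes each at 1, 2, 3 and 4 log2 units. With 1 spread for all groups, 16, 60, 76 and 92 percent were recovered and 4 unchanged genes were called. With the spread measured in each group, 34, 66, 84 and 90 percent were recovered and 223 unchanged genes were called. Where groups differ in spread, the counts may thus hold more false calls than the threshold implies. A gene below background on all arrays of a group has a fold bound, written "at least": the bright group's mean against the dim arrays' lowest signal well above background, or the probe's own signal where that is higher. The bound applies to the processed signal and need not hold under another background correction.

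Named genes were the 12 largest differences per direction among genes well above background on all 6 arrays and up to 6 with a bound (both called with and without SVF replicate 1, without overlap of the 6 arrays), and up to 4 per contrast between depots and direction, called with and without that array among genes that the 4 groups' arrays all measured above background. Called members served as list examples without these conditions, and other members are named with their values. Tbx1 against brown fat, Pard6g, Xist, Ddx3y and single array outliers were chosen after their values were seen. The members and the 36 lists were chosen with earlier results of these data known. Promoter windows are RefSeq's. A few list members count in the lists but are not reported by name here. Alternatives covered background correction, normalization, filters, probe choice, samples, array weights, blocks and leaving out each array.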

Additional observations from a re-analysis of the deposited data

Results flagged for a closer look

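Among the named genes, 11 passed a test that sets the adipocyte minus SVF difference of inguinal fat against that of another depot. The test was limma's, Benjamini-Hochberg adjusted over 19211 genes. Over all genes it called 165 (0.859 percent) against brown and 15 (0.0781 percent) against epididymal fat. Larger than in brown fat were Cnn1 by 6.67, Acta2 by 5.87, Actc1 by 5.83, Sncg by 5.43 and Tbx1 by 5.28, with adjusted p from 0.000123 (Sncg) to 0.00107 (Actc1). Smaller than in brown fat were Apof by -5.87, Entpd4 by -2.56, Fastkd1 by -2.13, Rpa3 by -2.04 and Col27a1 by -1.98, with adjusted p from 0.00446 (Apof) to 0.032 (Fastkd1). Larger than in epididymal fat were Tbx1 by 4.93 (adjusted p = 0.00755) and Trib1 by 2.45 (adjusted p = 0.0322). The Trib1 call was lost in the fit of probes well above background on all 18 arrays, where 0 genes passed against epididymal fat. Tbx1, measured by another probe in that fit, did not pass either. Its inguinal difference was -1.49 there (adjusted p = 0.0507), so the direction of Tbx1 depends on the probe. Passing without inguinal SVF replicate 1 was a condition for naming these genes, apart from Tbx1 against brown fat, which passed too. Fastkd1 lay closest to the threshold there (adjusted p = 0.048). Apof, named for its bound within inguinal fat, also passed against brown fat with and without that array (-5.87, adjusted p = 0.00446 with all arrays). The contrast was -4.44 with dim spots at the array's floor. Apof was well above background on all 3 inguinal SVF arrays and on 1 of the other 15, and on no brown array in either fraction. No difference between the depots is read from it, since neither brown fraction was measured. Tbx1 was below background on all 3 brown adipocyte arrays, and its contrast was 3.32 with those spots at the array's floor. Within inguinal fat, Acta2 (0.92), Actc1 (1.05), Tbx1 (1.22), Entpd4 (-0.30) and Fastkd1 (-0.03) are small next to these contrasts, and none of these 5 passed for the inguinal difference alone.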

How the results depend on the processing

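Settings are given as genes called for the inguinal difference (main 2684), higher and lower, and for the contrasts with brown (main 165) and epididymal fat (main 15). Normexp with the 75th percentile gave 341 (271 and 70), 46 and 2, after its fit failed on 4 inguinal arrays (fitted background means -673, -585, -403 and -389), and turned Cutal to 0.037. With the local background repaired first, an alternative chosen after seeing the data, it gave 2182, 102 and 3. The 6 inguinal arrays alone gave 252 (235 and 17; 3524 genes had an unadjusted p under 0.05), the 5 without SVF replicate 1 gave 149 (141 and 8), and inguinal with epididymal arrays 1704 (446 lower) and 1 against epididymal fat. Without a filter 532 were lower. The contrast with epididymal fat had 0 genes with probes above background on all 18 arrays, 2 with probes above it in an inguinal group, 7 with trend and robust eBayes, 318 with array weights (856 for brown) and 211 with the replicate block. That block gave 2671 for the inguinal difference, 2111 of them shared with the main calls. The replicate numbers gave no sign of pairing (correlations of same-numbered deviations -0.137, 0.0548 and -0.228). With 3 arrays per group these values cannot settle whether the samples were paired. Leaving out 1 array gave 1006 to 3099 called, 734 to 1812 higher, 272 to 1423 lower, 92 to 371 for brown and 7 to 32 for epididymal fat. The lowest count of called genes was without adipocyte replicate 3 and the highest without SVF replicate 3. Of the calls 65.6 percent were higher in adipocytes, against 79.5 percent with normexp, 57.4 percent with normexp and quantile normalization, 58.0 percent in the deposited matrix and 55.6 percent with array weights. Slide and scan day as random blocks gave 2131 and 2093. Signal near background limits the genes given only as bounds, and the number of arrays limits the rest.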
